A study of Mus musculus with 1600 samples.

Results

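The 6 genes described here, Wt1, Lmx1b, Tcf21, Foxc1, Foxc2 and Foxd1, encode transcription factors of the podocyte. They were chosen by name, all were present among the 45792 gene identifiers of the tables, and each is described across the cell types of the glomerulus and between diabetic and control mice. The study profiled single cells of whole glomeruli in the wells of a Fluidigm C1 array, a microfluidic device that captures cells in separate chambers, and the number of cells in each well had been counted by imaging. In the diabetes group, Nos3-/- mice on a C57BL/6 background had diabetes induced at 8 weeks of age by streptozotocin, which destroys pancreatic beta cells, injected into the peritoneum on 5 consecutive days at 50 µg per g of weight a day. In the control group, littermates of the same genotype and strain received citrate vehicle, and all mice were studied at 10 weeks, so both groups lacked endothelial nitric oxide synthase. Glomeruli of 3 mice were pooled per condition in each of 2 experiments, which gave 2 diabetes pools and 2 control pools; the replicate number is the experiment, and the pool, not the well, is the replicate.

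Podocytes are the epithelial cells that wrap the glomerular capillaries with foot processes joined by the slit diaphragm. Wt1 is a zinc finger factor required for kidney formation and for upkeep of the podocyte, and mutations in it cause Denys-Drash and Frasier syndromes in people. Lmx1b is a LIM-homeodomain factor mutated in nail-patella syndrome, and Tcf21 is a basic helix-loop-helix factor of the kidney mesenchyme and the podocyte. Foxc1, Foxc2 and Foxd1 belong to the forkhead family: the Foxc pair acts in kidney, vessel and podocyte development, and Foxd1 marks the stromal progenitors of the embryonic kidney and is also expressed in podocytes.

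The genes lie on GRCm38 at chr2:105126529-105173616 (Wt1, plus strand), chr2:33560965-33640511 (Lmx1b, minus strand), chr10:22817281-22820174 (Tcf21, minus strand), chr13:31806633-31812476 (Foxc1, plus strand), chr8:121116171-121118895 (Foxc2, plus strand) and chr13:98354242-98359305 (Foxd1, plus strand). Foxc1 and Foxc2 are close in sequence, and no source used here gives how reads that fit several genes were assigned. The stretches of 120 bases below, each from the single coding exon of its gene (GENCODE M21, plus strand), are shown because they are the most similar stretch of the Foxc pair. Capitals mark bases that differ from Foxc1.
Foxc1, chr13:31807619-31807738: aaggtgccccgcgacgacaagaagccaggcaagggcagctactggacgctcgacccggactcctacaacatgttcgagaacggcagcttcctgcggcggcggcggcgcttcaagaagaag
Foxc2, chr8:121117005-121117124: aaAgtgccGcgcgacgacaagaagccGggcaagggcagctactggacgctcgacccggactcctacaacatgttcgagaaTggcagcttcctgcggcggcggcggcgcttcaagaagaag
Foxc2 differed from Foxc1 at 4 of the 120 bases, and the longest run of identical bases in the coding sequences of the pair was 53. Fractional values were rare for the members: they made up 1.83% of the Foxc1 values above 0, 0.80% for Foxc2, 0.96% for Foxd1 and 3.80% for Wt1, where over all genes 74.15% and 79.31% of the values above 0 were whole in experiments 1 and 2. The antisense gene Wt1os starts 18 bases from Wt1 on the other strand. Whether strand was used in counting is not given either; the antisense gene Gm10824, which overlaps Tcf21, was not analysed here.

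Upstream sequence is shown for the member with the broadest expression, Foxc1, and for the member most restricted to podocyte-like wells, Foxd1. Each window runs from 250 to 41 bases before the annotated start (RefSeq, GRCm38.p6, on the strand of the gene), and capitals mark the E-box CANNTG, the recognition motif of helix-loop-helix factors such as Tcf21.
Foxc1, chr13:31806396-31806605: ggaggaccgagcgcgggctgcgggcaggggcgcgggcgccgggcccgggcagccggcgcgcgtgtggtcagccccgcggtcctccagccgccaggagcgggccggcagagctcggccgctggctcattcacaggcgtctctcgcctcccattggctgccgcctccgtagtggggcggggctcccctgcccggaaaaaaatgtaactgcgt
Foxd1, chr13:98353995-98354204: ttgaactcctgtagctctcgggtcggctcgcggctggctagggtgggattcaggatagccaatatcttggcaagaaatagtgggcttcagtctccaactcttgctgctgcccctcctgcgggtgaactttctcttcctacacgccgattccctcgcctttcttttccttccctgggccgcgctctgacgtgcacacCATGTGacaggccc
The Foxc1 window was 75.2% G and C, a value reached by 3.77% of 32851 such windows, and it held no E-box. The Foxd1 window was 57.6% G and C and held 1 E-box, 54 bases before the start. The windows of Lmx1b and Tcf21 held 1 and 0 E-boxes, and 60.7% of all windows held at least 1 on either strand. TGTTTAC (forkhead), TAATTA (homeodomain) and GCGTGGG (Wt1) had no match on either strand in the 4 windows available, and 2.69%, 4.37% and 3.51% of all windows held them. Wt1 and Foxc2 had no such window to search.

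Of 833 wells imaged with 1 cell, 639 were kept: 128 and 188 in diabetes replicates 1 and 2, and 120 and 203 in control replicates 1 and 2. Median counts per kept well were 43577 and 176715 in the diabetes pools and 32222 and 219072 in the control pools, so experiment 2 was the deeper one. Wells were clustered without the 6 members and named from marker genes that code for no member, which gave 73 podocyte-like, 115 mesangial-like, 303 endothelial-like, 78 immune-like, 38 tubular-like, 18 smooth muscle or renin cell-like, and 8 fibroblast-like wells, with 6 unnamed ones. The podocyte-like cluster was led, among others, by Ptpro, Sema3g, Clic3, Cdkn1c and Podxl, and all 12 podocyte markers stood among its 50 leading genes. It held 1 and 17 wells in diabetes replicates 1 and 2, and 24 and 31 wells in control replicates 1 and 2. Diabetes replicate 1 therefore rests on 1 well of 18535 counts, in which 1 count is worth 54.0 CPM, that is, counts scaled to a total of 1e+06 per sum. The labels call the groups sex-matched, but over the 6 sums of podocyte-, mesangial- and endothelial-like wells in each group Xist, which silences an X chromosome in females, was at 0 to 5.90 CPM in diabetes and 245 to 1031 CPM in control. Ddx3y, on the Y chromosome, was at 0 to 118 CPM in diabetes and 0 to 0.349 CPM in control, so that condition and sex cannot be told apart in any comparison of the groups.

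Wt1 was the most abundant member in podocyte-like wells. In every pool its level was highest in podocyte-like wells, lower in mesangial-like wells and lowest of these classes in endothelial-like wells. Its level was 2212 CPM in the single well of diabetes replicate 1, 619 CPM in diabetes replicate 2, and 1370 and 957 CPM in control replicates 1 and 2. In mesangial-like wells it was 2.79 and 96.5 CPM in the diabetes pools and 266 and 151 CPM in the control pools. In endothelial-like wells it was 0.621 and 13.5 CPM in the diabetes pools and 10.6 and 58.8 CPM in the control pools, with 57.5% of the last value from 1 well. Every podocyte-like sum was above every mesangial-like and endothelial-like sum, and among sums of at least 5 wells the mesangial-like ones were also all above the endothelial-like ones. Fibroblast-like wells, at most 3 per pool, held Wt1 at 142 CPM in diabetes replicate 1 and at 90.5 and 4.95 CPM in control replicates 1 and 2. With the edgeR quasi-likelihood test on sums per pool, Wt1 was higher in podocyte-like than in endothelial-like wells (log2 fold change 6.57 ± 1.02 SE, adjusted p = 4.69e-05) and than in mesangial-like wells (3.75 ± 0.91, edgeR adjusted p = 0.00837). It was also higher in mesangial-like than in endothelial-like wells (2.82 ± 0.87, edgeR adjusted p = 0.0440), a call that was lost without any 1 of the 4 pools.

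**Figure D1:**
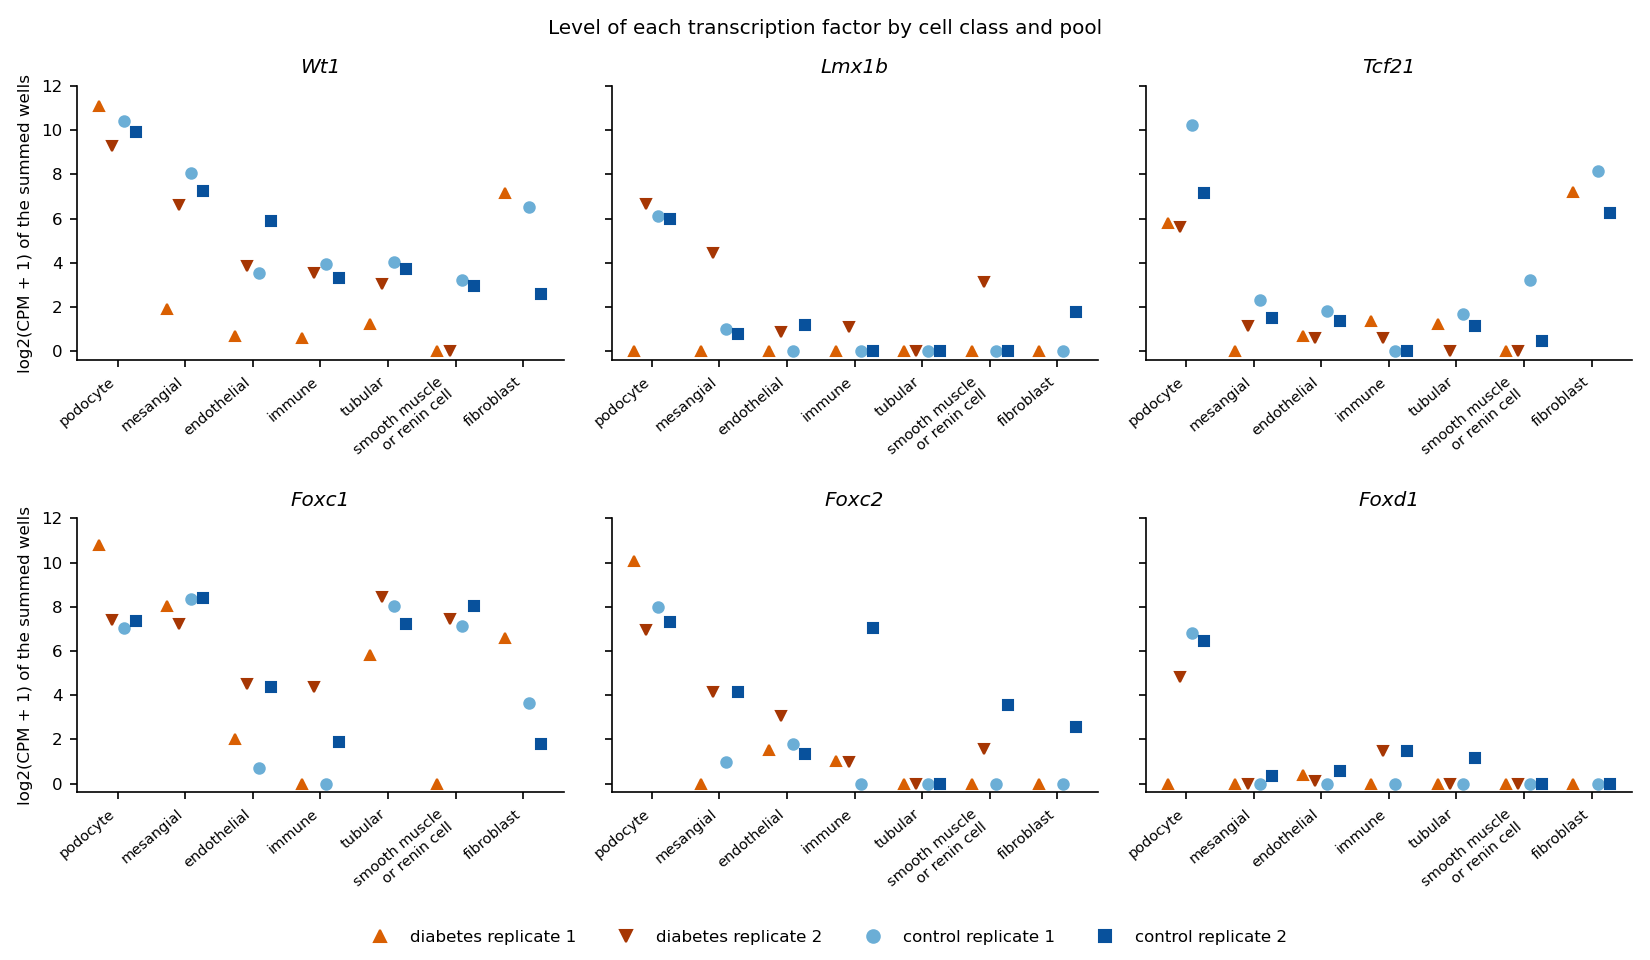
Level of each member as log2(CPM + 1) in the summed wells of each class, 1 point per pool of the diabetes and control groups. The podocyte-like sums of Wt1 lie between 619 and 2212 CPM, while the Foxc1 sums of podocyte-like and mesangial-like wells overlap.

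Lmx1b was low and nearly restricted to podocyte-like wells. It had 0 and 99.2 CPM there in diabetes replicates 1 and 2, and 69.5 and 62.9 CPM in control replicates 1 and 2. The 0 comes from 1 well, in which a count of 0 allows up to 162 CPM. In endothelial-like wells it stood at 0 and 0.845 CPM in the diabetes pools and 0 and 1.31 CPM in the control pools. The difference between podocyte-like and endothelial-like wells passed the test (6.90 ± 1.82, edgeR adjusted p = 0.0200), and that between podocyte-like and mesangial-like wells did not (4.56 ± 1.72, edgeR adjusted p = 0.150). In mesangial-like wells it had 0 and 20.96 CPM in the diabetes pools, against 0.982 and 0.713 CPM in the control pools, and 1 well gave 94.96% of the 20.96 CPM.

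Tcf21 was restricted to podocyte-like wells among the resident glomerular classes and was the member that varied most between pools. It had 54.0 CPM (1 count) and 48.7 CPM in diabetes replicates 1 and 2, and 1199 and 142 CPM in control replicates 1 and 2. Every mesangial-like sum was at 3.93 CPM or less and every endothelial-like sum at 2.49 CPM or less. It was higher in podocyte-like than in endothelial-like wells (7.06 ± 1.17, edgeR adjusted p = 0.000116) and than in mesangial-like wells (6.66 ± 1.14, edgeR adjusted p = 0.000173). Fibroblast-like wells held it at 145 CPM in diabetes replicate 1 and at 283 and 74.2 CPM in control replicates 1 and 2, with 88.0% or more of each value from 1 well.

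Foxc2 was higher in podocyte-like than in mesangial-like wells, a difference not called for Foxc1, although the coding stretches above differ at 4 bases. Foxc2 had 1079 CPM (20 counts) and 121 CPM in podocyte-like wells of diabetes replicates 1 and 2, and 254 and 159 CPM in control replicates 1 and 2. Mesangial-like wells held 0 and 16.9 CPM in the diabetes pools and 0.982 and 16.6 CPM in the control pools, and endothelial-like wells held 7.28 CPM or less in every pool. Foxc2 was higher in podocyte-like than in endothelial-like wells (6.46 ± 1.21, edgeR adjusted p = 0.000586) and than in mesangial-like wells (5.09 ± 1.17, edgeR adjusted p = 0.00509). The 130 CPM of immune-like wells in control replicate 2 came from 1 well of 6.

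Foxc1 was found in podocyte-like and mesangial-like wells alike, and in some tubular-like wells and wells with smooth muscle or renin cell markers. In podocyte-like wells it had 1780 CPM (33 counts) and 168 CPM in diabetes replicates 1 and 2, and 131 and 163 CPM in control replicates 1 and 2. In mesangial-like wells it had 260 and 150 CPM in the diabetes pools and 324 and 336 CPM in the control pools. These ranges overlap, and the difference was -0.21 ± 0.86 on the log2 scale (podocyte-like over mesangial-like, edgeR adjusted p = 0.969). The standard error leaves room for a difference in either direction, and the sign turned in 3 of the alternative settings given under processing. Endothelial-like wells held 3.10 and 21.6 CPM in the diabetes pools and 0.623 and 19.6 CPM in the control pools, below both other classes: Foxc1 was higher in podocyte-like wells (4.66 ± 1.00, edgeR adjusted p = 0.00349) and in mesangial-like wells (4.87 ± 1.01, edgeR adjusted p = 0.00194). Tubular-like wells held 56.0 and 347 CPM in the diabetes pools and 259 and 146 CPM in the control pools, of which 1 well gave 46.6 to 95.9%. The tubular-like name rests on 3 of 12 markers, and endothelial markers summed higher than tubular ones in these wells in every pool, to 12074 and 6405 CPM against 1310 and 5498 CPM in the diabetes pools and to 11856 and 24327 CPM against 4300 and 2161 CPM in the control pools. At a Leiden resolution of 1.2 the class held 18 wells in place of 38.

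Foxd1 had the fewest counts of the members over all kept wells and the highest share of them in podocyte-like wells, which held 862.33 of its 893.33 counts in kept wells (96.5%). It had 0 and 26.9 CPM there in diabetes replicates 1 and 2, and 112 and 87.1 CPM in control replicates 1 and 2. The 0 comes from the single well of diabetes replicate 1, with the same limit as for Lmx1b. In control replicate 2, 1 podocyte-like well had 1254 CPM of Foxd1 and the next highest had 609 CPM. Mesangial-like wells held 0.285 CPM in control replicate 2 and 0 in the other pools, and endothelial-like wells held at most 0.485 CPM. Foxd1 did not pass the filter on low counts; without that filter it was higher in podocyte-like than in endothelial-like wells (7.54 ± 1.95, edgeR adjusted p = 0.00723, against 1.36% of 21780 genes called higher). It was also higher than in mesangial-like wells (8.95 ± 2.03, edgeR adjusted p = 0.00119, against 1.05% called higher). Without diabetes replicate 1, Foxd1 passed the filter and was called over both classes (8.36 and 9.33, edgeR adjusted p = 0.0130 and 0.0120). In these fits 364 and 417 of 12091 genes were called in either direction. In experiment 2 alone it passed the filter and was called over neither class (edgeR adjusted p = 0.0887 and 0.0640). These fitted folds rest on counts near 0 in the other class, depend on the prior count and are no bound.

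Of the 6 members, 5 passed the filter, and these passed through the podocyte-like or mesangial-like sums where they are high. All 5 were called higher in podocyte-like than in endothelial-like wells, where 2.04% of 10960 genes were called higher and all genes had a median of -0.72 on the log2 scale. Wt1, Tcf21 and Foxc2 were called higher in podocyte-like than in mesangial-like wells, where 1.69% of genes were called higher (median -0.26). Wt1 and Foxc1 were called higher in mesangial-like than in endothelial-like wells, where 2.44% of genes were called higher (median -0.39). Within experiment 1 alone, Wt1 was the member called, between podocyte-like and endothelial-like wells (9.23, edgeR adjusted p = 0.00339), and Foxc1 had 7.65 there (0.0730). Within experiment 2 alone, Wt1 (4.91, edgeR adjusted p = 0.00926) and Tcf21 (6.70, 0.0492) were called over endothelial-like wells and Wt1 (2.89, edgeR adjusted p = 0.0423) over mesangial-like wells.

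The levels per length of transcript put the members of podocyte-like wells in another order than their CPM. In CPM per kb of exon, Wt1 was at 99.9 in diabetes replicate 2 and at 221 and 154 in control replicates 1 and 2. Tcf21, with the shortest exons, was at 20.7 in diabetes replicate 2 and at 510 and 60.6 in control replicates 1 and 2, so it was above Wt1 in control replicate 1 and below it in the other pools. Foxc2 was at 44.4 in diabetes replicate 2 and at 93.1 and 58.2 in the controls, above Foxc1 in each (28.8 in diabetes replicate 2, 22.3 and 27.97 in the controls). Foxd1 was lowest in diabetes replicate 2, at 5.32, and Lmx1b was lowest in the control pools, at 14.3 and 12.9. No source used here says whether reads cover transcripts evenly.

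In single podocyte-like wells, the members differed in how often they were seen. Wt1 had a count in 68 of 73 wells (93.2%), Tcf21 in 55, Foxc2 in 52, Foxc1 in 50, Lmx1b in 32 and Foxd1 in 30. Detection moves with depth, and podocyte-like wells of diabetes replicate 2 and control replicates 1 and 2 had median counts of 144566, 53725 and 211241, against 195309, 28954 and 229122 in endothelial-like wells of the same pools. After thinning each well to 10000 counts, which left out 1 podocyte-like well, Wt1 was seen in 76.5% of podocyte-like wells of diabetes replicate 2 and in 87.0% and 90.3% in control replicates 1 and 2. Thinned endothelial-like wells showed Wt1 in 11.8% in diabetes replicate 2 and in 8.11% and 10.8% in the controls. Lmx1b was in 35.3% of thinned podocyte-like wells in diabetes replicate 2 and in 21.7% and 22.6% in the controls, and in no thinned endothelial-like well. Foxd1 was in 5.88% in diabetes replicate 2 and in 34.8% and 25.8% in the controls, and in at most 1.205% of endothelial-like wells.

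**Figure D2:**
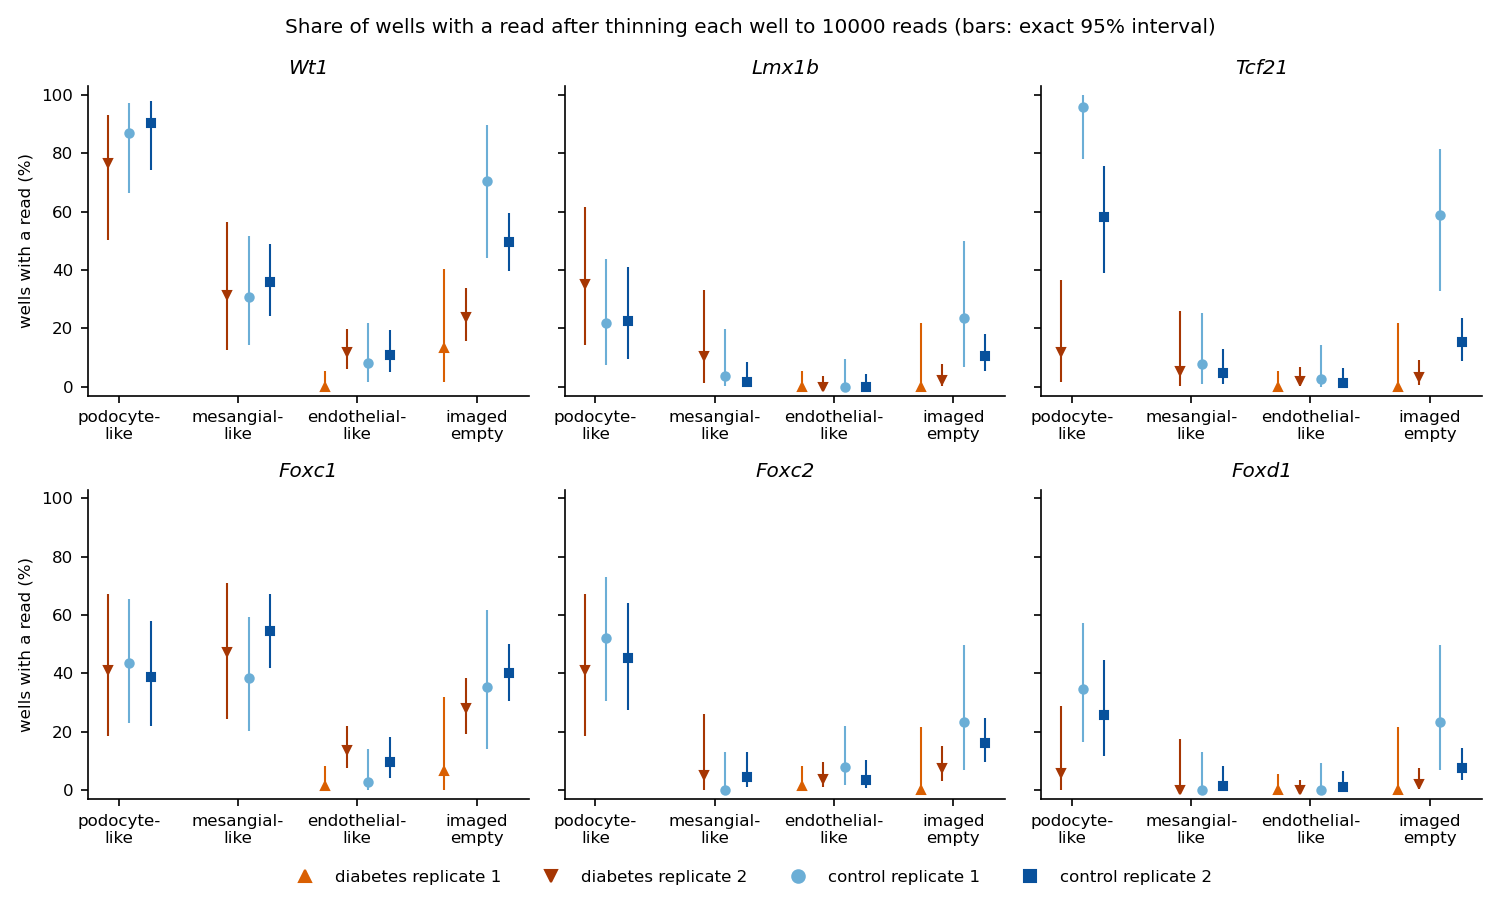
Percent of wells with at least 1 count of each member after thinning to 10000 counts per well, by class and pool, with exact Clopper-Pearson 95% intervals that cover counting error only. Wt1 is seen in 76.5% to 90.3% of podocyte-like wells in the 3 pools with more than 1 such well, and Lmx1b in 21.7% to 35.3%.

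Wells imaged as empty also held these transcripts, and the pool with the highest level differed between members: it was control replicate 1 for Wt1, Tcf21, Foxc2 and Foxd1, control replicate 2 for Lmx1b and diabetes replicate 2 for Foxc1. Summed over empty wells, Wt1 was at 17.4 and 127 CPM in the diabetes pools and 390 and 165 CPM in the control pools. Tcf21 was at 2.90 and 28.3 CPM in the diabetes pools and 258 and 19.7 CPM in the control pools, so control replicate 1 was highest there too, as in podocyte-like wells. In control replicate 1, 109 of 195 empty wells held no member, and 17 of the 195 reached 10000 counts. After thinning, 70.6% of these 17 deepest empty wells showed Wt1 and 58.8% showed Tcf21. Foxc1 was seen in 38.7% of thinned podocyte-like wells of control replicate 2, against 40.0% of its thinned empty wells, a share no higher than that of wells with no cell. It was seen in 41.2% of podocyte-like wells against 28.3% of empty wells in diabetes replicate 2, and in 43.5% against 35.3% in control replicate 1. The last share is of the same 17 empty wells. Empty wells had median counts of 2397 and 32994 in the diabetes pools and 2212 and 33610 in the control pools. The part of free RNA in the wells with 1 cell was not tested.

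The members were seen together in most podocyte-like wells. Of the 73 wells, 8 had counts of all 6 members, 21 of 5, 17 of 4, 14 of 3, 11 of 2 and 2 of 1, and none lacked all 6. All 32 wells with Lmx1b had Wt1, as did 29 of 30 wells with Foxd1, 51 of 52 wells with Foxc2 and 50 of 55 wells with Tcf21. Foxd1 wells also had Foxc2 in 28 of 30 cases. The 8 wells with all 6 members had a median of 299003 counts. Medians for 1, 2, 3, 4 and 5 members were 118558, 65787, 101826, 122773 and 114986 counts. These medians mix pools of unlike depth, so they do not show how the number of members moves with depth. In control replicate 1, the 4 wells with 2 members had 10276 to 47686 counts and the 6 wells with 5 members 24986 to 93901. Its 2 wells with 6 members had 72806 and 82321 counts. With 10000 counts per well, 3 or more members were seen in 4 of 17 podocyte-like wells of diabetes replicate 2 and in 18 of 23 and 18 of 31 in control replicates 1 and 2. In endothelial-like wells at that depth this was so in 1 well, in control replicate 1.

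**Figure D3:**
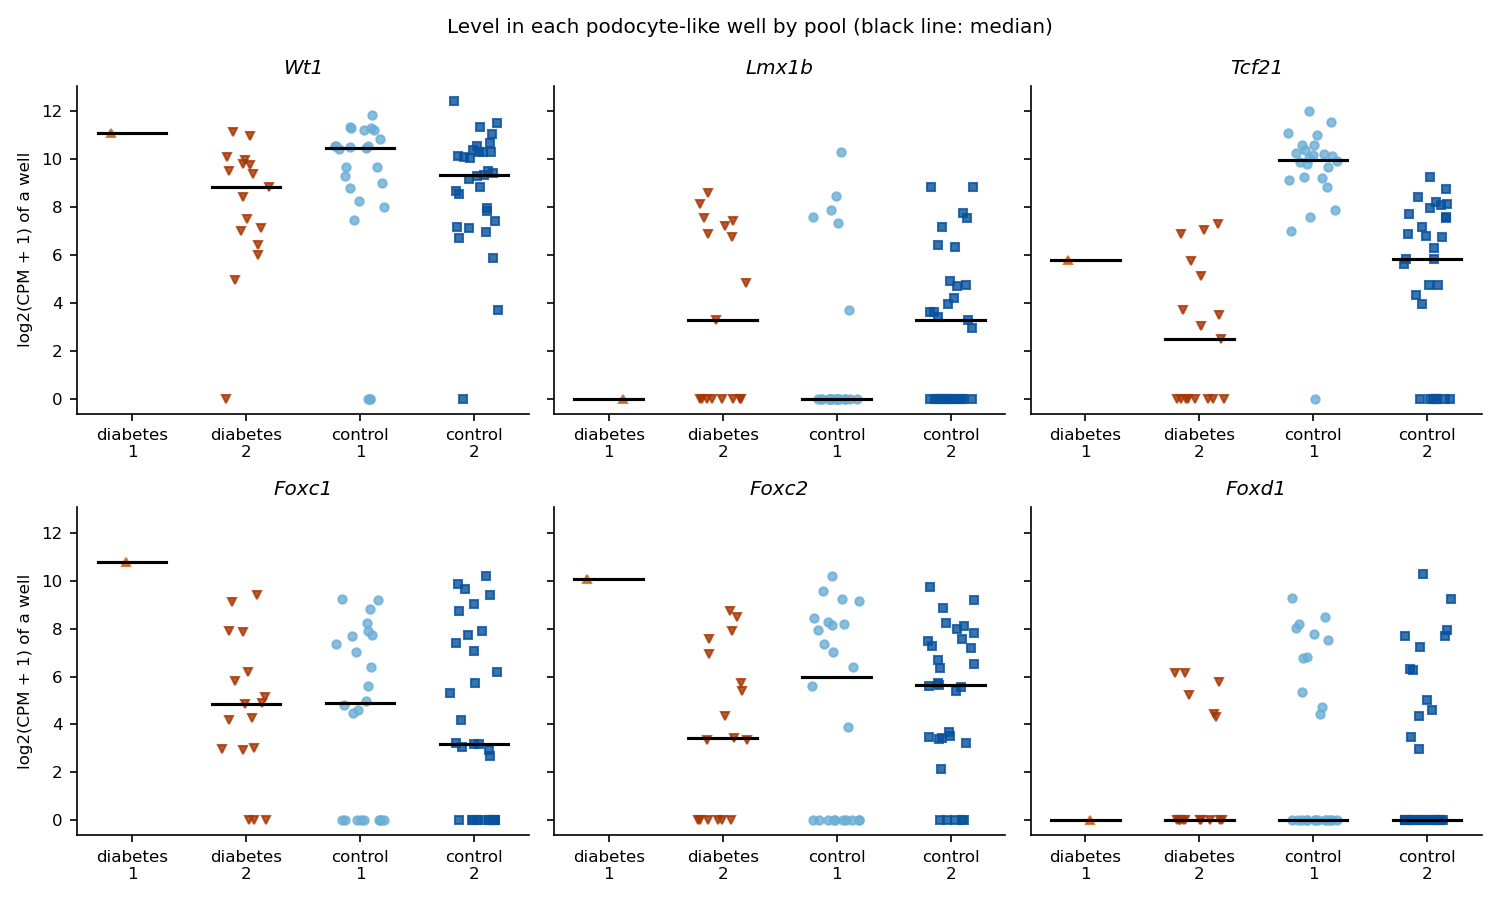
Level of each member in every podocyte-like well as log2(CPM + 1), by pool, with the median as a black line. The median Tcf21 well is at 4.70 CPM in diabetes replicate 2 and at 1016 and 56.0 CPM in control replicates 1 and 2.

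The spread among wells was wide for every member. Wt1 ran between 0 and 2279 CPM per well in diabetes replicate 2 (median 461), between 0 and 3723 CPM in control replicate 1 (median 1402) and between 0 and 5555 CPM in control replicate 2 (median 647). Lmx1b ran up to 390 CPM in diabetes replicate 2 and up to 1265 and 462 CPM in control replicates 1 and 2, and its median well held 8.70, 0 and 8.79 CPM in these 3 pools. Tcf21 reached 100 CPM in 3 of 17 wells of diabetes replicate 2, and in 23 of 24 and 14 of 31 wells of control replicates 1 and 2. The gap in Tcf21 between the control pools was thus present across wells and was not set by a few of them. Over the summed wells it was 3.07 on the log2 scale (control replicate 1 over control replicate 2), and 86 of 3644 genes at 50 CPM or more (2.36%) differed as much or more in that direction, with a median of 0.17 over these genes. The other 5 members lay between -0.32 and 0.67.

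The Wt1 and Foxc1 counts of mesangial-like wells were set against those of the slit diaphragm gene Nphs1 and the podocyte phosphatase gene Ptpro, which mark podocyte RNA; this pair was chosen after values had been seen. In podocyte-like wells there were 443 and 248 Wt1 counts per 1000 counts of Nphs1 and Ptpro together in the diabetes pools, and 485 and 243 in the control pools. Mesangial-like wells had 1000 and 1187 in the diabetes pools and 5646 and 2250 in the control pools. The first of these values rests on 1 count of Wt1 and 1 of Ptpro; in the other 3 pools the mesangial-like ratio was above the podocyte-like one. Empty wells, which hold free RNA, had 296 and 803 in the diabetes pools and 512 and 240 in the control pools, below the mesangial-like wells of diabetes replicate 2 and of both control pools. Endothelial-like wells had 601 and 265 in the diabetes pools and 1286 and 1357 in the control pools, so their ratio was above the podocyte-like one of the same pool as well, in diabetes replicate 1 on 2 counts of Wt1.

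For Foxc1 the same ratio was 356 and 67.4 in podocyte-like wells of the diabetes pools and 46.2 and 41.5 in the control pools. In mesangial-like wells it cannot be read in diabetes replicate 1, which had 1 count of the marker pair. In those of diabetes replicate 2 it was 1841, and in those of control replicates 1 and 2 it was 6875 and 5011. Empty wells had 370 and 1166 in the diabetes pools and 144 and 117 in the control pools, below the mesangial-like wells of diabetes replicate 2 and of both control pools. Foxc1 reached 100 CPM in 52 of 115 mesangial-like wells, and 41 of these had less Nphs1 and Ptpro than the lowest podocyte-like well (90.3 CPM). Wt1 reached 100 CPM in 39 mesangial-like wells, of which 25 were below that level. The 39 wells had a median of 24.1 CPM of Nphs1 and Ptpro and 21217 CPM of the 12 mesangial markers, against 2.07 and 18374 CPM in the 76 wells with less Wt1. The 63 podocyte-like wells with at least 100 CPM of Wt1 had medians of 2873 and 391 CPM of these marker sets, and more Wt1 (median 883 CPM, against 283 CPM in the 39 mesangial-like wells). Both marker sets took part in making and naming the classes, so that this separation was fixed by the sorting and tests nothing about the source of the Wt1 counts.

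**Figure D4:**
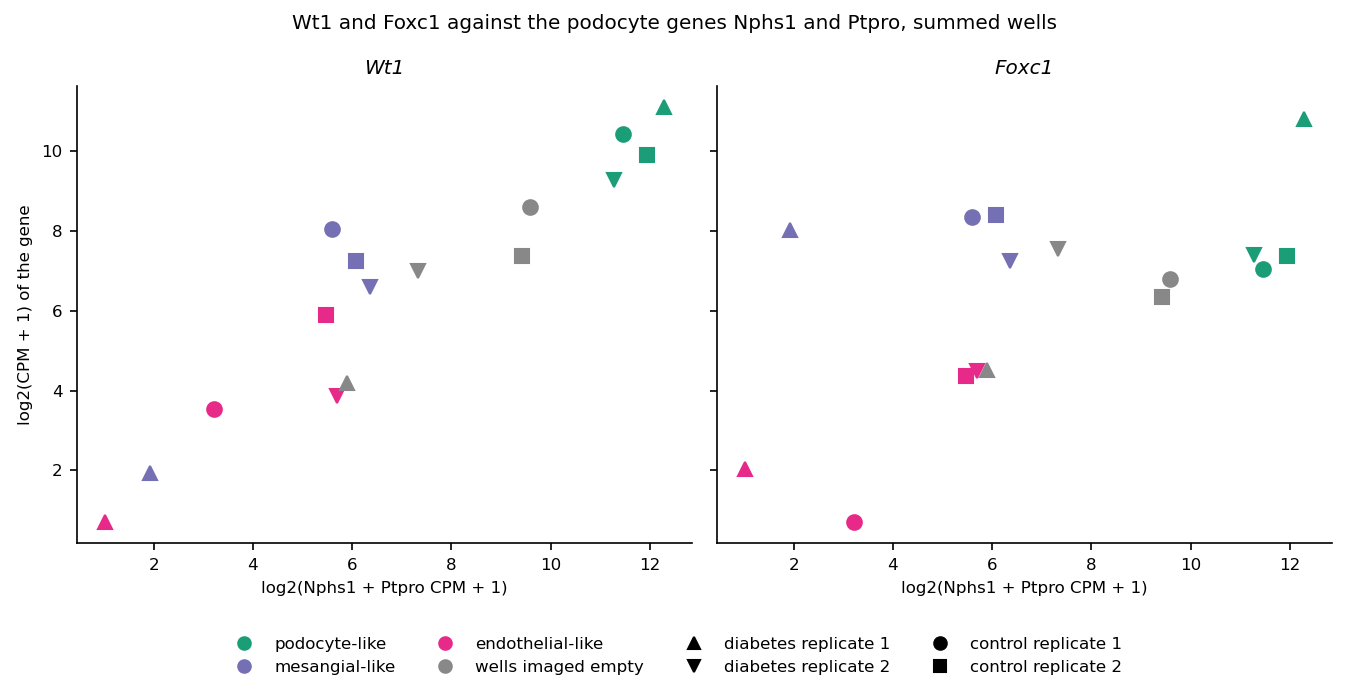
Wt1 (left) and Foxc1 (right) against the summed level of Nphs1 and Ptpro, both axes as log2(CPM + 1), with 1 point for each pool's summed podocyte-like, mesangial-like, endothelial-like or empty wells. Mesangial-like sums lie at 81.4 CPM of Nphs1 and Ptpro or less, while their Foxc1 level, 150 to 336 CPM, overlaps that of podocyte-like sums.

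The comparison of diabetes with control asked whether the members changed in podocyte-like cells within 2 weeks of the first injection. None of the 6 passed the test (edgeR with the experiment as a block, adjusted p = 1 for each), and none reached an unadjusted p of 0.05; 0% of 8368 genes were called, 266 genes reached that unadjusted p, and DESeq2 called 2 genes and no member. The log2 fold changes of diabetes over control were -0.69 ± 1.61 for Wt1, -1.19 ± 3.85 for Lmx1b, -3.43 ± 2.83 for Tcf21, 1.18 ± 2.64 for Foxc1, 0.13 ± 2.62 for Foxc2 and -2.93 ± 3.57 for Foxd1. The median of all genes was -1.11, and the standard errors allow changes of several-fold in either direction for each member. In per-pool values, the 2 diabetes sums of Tcf21 (54.0 and 48.7 CPM) lay below both control sums (1199 and 142 CPM). Foxd1 had 0 and 26.9 CPM, against 112 and 87.1 CPM. Its 0 comes from the single well, where a count of 0 allows a level above both control sums. The diabetes and control sums of Wt1 and Lmx1b overlapped, as did those of Foxc2, while both Foxc1 sums in diabetes (1780 and 168 CPM) lay above those in control (131 and 163 CPM). The share of all genes whose sums separate the groups was not counted. With 2 sums per group, such separation is no result about the members.

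Values without diabetes replicate 1, the pool of 1 well, were -3.52 for Tcf21 (edgeR adjusted p = 0.123), -1.73 for Foxd1 (0.815), -0.75 for Wt1, 0.72 for Lmx1b, -0.60 for Foxc2 and 0.31 for Foxc1. Without diabetes replicate 2, which leaves that single well as the diabetes group, Tcf21 had -5.06 and was called (edgeR adjusted p = 0.0146), beside 387 genes in all. Without control replicate 1, edgeR called 1705 of 10666 genes and no member, so the number of calls in this comparison rests on single pools. In the same test on simulated counts at these depths, 2 of 100 genes changed 4-fold and 59 of 100 changed 16-fold were recovered, with 232 false calls among 9390 genes. The simulated counts had the same assumed spread for every gene and no pool effect, so they are no measure of power in the real sums. Immune markers in podocyte-like sums split the groups: the 12 markers summed to 755 and 627 CPM in the diabetes pools and to 26.5 and 50.3 CPM in the control pools, and 9, 0, 3 and 4 of them were at 0 in diabetes replicates 1 and 2 and control replicates 1 and 2. The 7 fibroblast markers summed to 917 and 513 CPM in the diabetes pools and to 73.9 and 360 CPM in the control pools, with 2 to 5 of them at 0. Mesangial markers were lower in diabetes: the 12 summed to 486 and 727 CPM, against 890 and 1415 CPM in the control pools. In the single well 7 of these 12 were at 0. The 6 smooth muscle or renin cell markers were also lower, at 0 and 11.8 CPM against 27.6 and 28.2 CPM. Between 1 and 6 of these were at 0. Endothelial markers did not split the groups: the 14 markers summed to 108 and 7681 CPM in the diabetes pools and to 867 and 3535 CPM in the control pools, with 12 of them at 0 in the single well and none at 0 elsewhere. The 12 podocyte markers summed to 37161 and 22413 CPM in the diabetes pools and to 29047 and 31315 CPM in the control pools. The part of these in the member values was not tested.

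**Figure D5:**
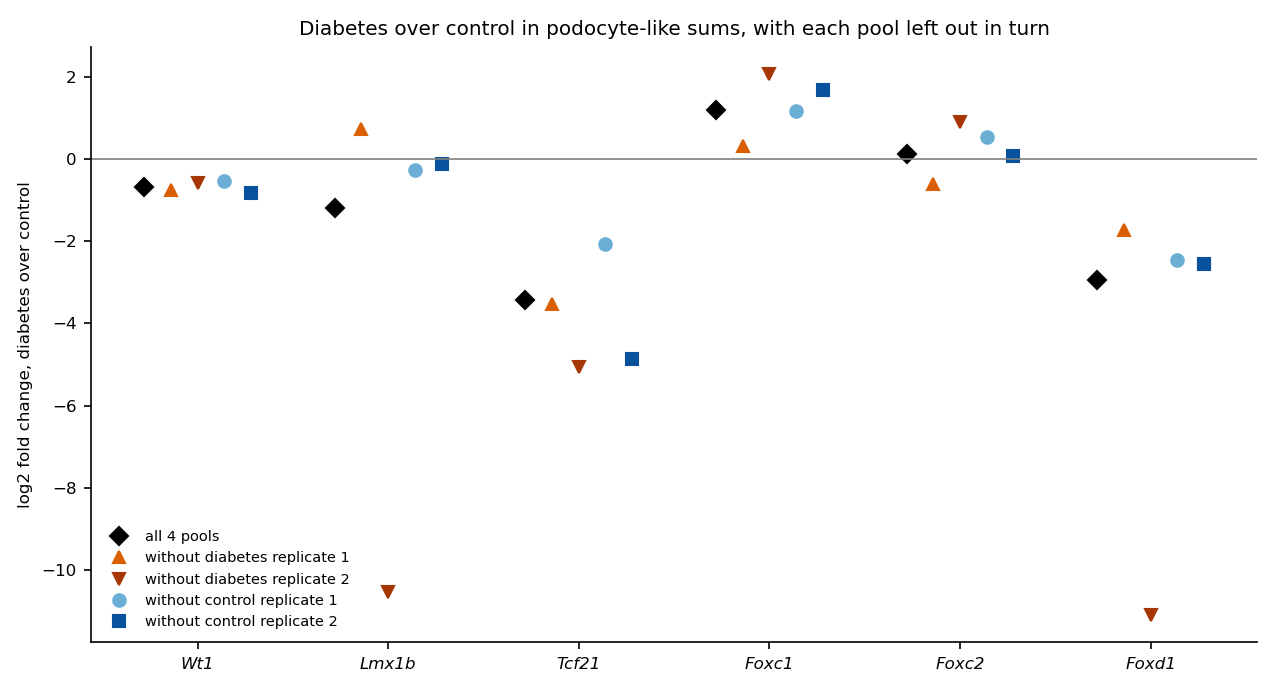
Log2 fold change of diabetes over control for each member in podocyte-like sums, with all 4 pools and without each pool in turn, 1 point per setting and no error bars; the standard errors with all 4 pools run between 1.61 and 3.85. Tcf21 is below 0 in every setting (-5.06 to -2.06), and values of Lmx1b and Foxd1 without diabetes replicate 2 are set against a group at 0, depend on the prior count and are no bound.

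In mesangial-like wells, 3 members could be tested and none was called, where 0.15% of 10016 genes were called. Wt1 had 2.79 and 96.5 CPM in the diabetes pools, against 266 and 151 CPM in the control pools. Its fold change was -3.01 ± 1.41 (unadjusted p = 0.0332, edgeR adjusted p = 0.9996). Without diabetes replicate 1, which holds 4 mesangial-like wells, it was -0.94. Foxc1 had -0.73 ± 0.71 and Foxc2 -0.49, and the median of all genes was -0.44. Podocyte markers in these sums came to 213 and 1256 CPM in the diabetes pools and 779 and 1063 CPM in the control pools. The 14 endothelial markers were lower in diabetes, at 2174 and 2411 CPM against 3769 and 3671 CPM in the control pools. At most 1 of them was at 0. The 7 fibroblast markers came to 5113 and 1635 CPM in the diabetes pools and 455 and 578 CPM in the control pools, with 1 or 2 of them at 0. The 6 smooth muscle or renin cell markers came to 2075 and 2360 CPM in the diabetes pools and 637 and 372 CPM in the control pools, also with 1 or 2 at 0, and the part of these markers in the Wt1 values was not tested. In endothelial-like wells, 5 members could be tested and none was called (edgeR; 0% of 12574 genes called, 440 genes at an unadjusted p under 0.05 and no member among them, and 78 genes but no member called by DESeq2); Wt1 had -2.91 there with an unadjusted p of 0.0553. Mesangial markers in endothelial-like sums came to 4613 and 1908 CPM in the diabetes pools and 10150 and 5343 CPM in the control pools, with at most 1 of 12 at 0. Immune markers came to 470 and 290 CPM in the diabetes pools and 34.996 and 56.7 CPM in the control pools, with 0 to 5 of 12 at 0. Fibroblast markers came to 48.2 and 66.9 CPM in diabetes and 5.11 and 25.4 CPM in control, with at most 2 of 7 at 0. Parietal epithelial markers came to 1906 and 1623 CPM in diabetes and 1338 and 1531 CPM in control (1 to 3 of 6 at 0). Erythroid markers came to 13411 and 26.1 CPM in the diabetes pools and 0 and 25.2 CPM in the control pools, and the part of these markers was not tested.

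Other transcription factors of the podocyte and target genes of this group were read beside the members, as levels. Of 13 other factors, those named here stood at very different levels in the single podocyte-like well of diabetes replicate 1 and in the other pools. Nr3c1, the glucocorticoid receptor, had 647 CPM in that well and 63.1 CPM in diabetes replicate 2, against 23.97 and 59.3 CPM in control replicates 1 and 2. The zinc finger factor Klf6 had 486 and 96.4 CPM in the diabetes pools and 105 and 95.7 CPM in the control pools. Tead1, the DNA-binding partner of the coactivator Wwtr1, had 0 and 227 CPM in the diabetes pools and 114 and 227 CPM in the control pools. Wwtr1 itself had 0 and 182 CPM in the diabetes pools and 98.3 and 103.1 CPM in the control pools, so both were above Nr3c1 and at or above Klf6 wherever more than 1 well was summed, except Wwtr1 in control replicate 1. Zhx1, a zinc finger and homeobox factor, had 0 and 30.8 CPM in the diabetes pools and 168 and 106 CPM in the control pools. Of 25 target genes, Podxl, which encodes the anionic coat protein podocalyxin, Cdkn1c, a cell cycle inhibitor, Ptpro, the actin-binding Synpo and the growth factor gene Vegfa averaged 5118, 3731, 2480, 2359 and 1407 CPM over the 4 podocyte-like sums, of which Cdkn1c had 6536 CPM in the single well and 2078 to 3345 CPM in the other pools. In the comparison of diabetes with control in podocyte-like wells, 0 of 10 tested factors and 0 of 25 tested targets were called (edgeR; 1 factor and no target at an unadjusted p under 0.05). The medians were -1.04 and -1.05, near the -1.11 of all genes.

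Among other forkhead genes at 5 CPM or more, Foxd2, a paralogue of Foxd1, had the highest mean level in podocyte-like wells. Foxd2 had 432 and 86.3 CPM in the diabetes pools and 202 and 149 CPM in the control pools in podocyte-like wells, with averages of 14.3 CPM in mesangial-like and 4.70 CPM in endothelial-like wells. Foxn3, Foxp1, Foxo1, Foxj3, Foxo3, Foxn2, Foxs1, Foxj2, Foxl1, Foxp2 and Foxk2 also averaged 5 CPM or more over the 4 podocyte-like sums, Foxp2 through 1 count in the single well of diabetes replicate 1. Foxk1 and Foxo4 averaged 2.02 and 2.11 CPM there, and 8.74 and 6.30 CPM over mesangial-like sums. Wt1os averaged 155 CPM in podocyte-like and 13.7 CPM in mesangial-like wells. The Lmx1b neighbour C130021I20Rik, 681 bases away on the other strand, averaged 12.6 CPM in podocyte-like wells.

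Genes with the pattern most like each member were ranked by Pearson correlation of log2(CPM + 1) over 20 sums of class and pool, among 11440 genes; the sums share libraries and depth, and the ranking is a description. For Wt1 these were Raver2 (0.883), Shisa3 (0.871) and the slit diaphragm gene Nphs1 (0.868). For Foxc1 they were Igfbp7 (0.900), P3h2 (0.840) and Pde3a (0.821). For Lmx1b they were Uprt (0.956), Gabra4 and Snx31 (0.942 each), for Tcf21 Ephx2 (0.932), Gabra4 (0.913) and Prm1 (0.911), for Foxc2 Ngb (0.874), Syt9 (0.850) and Galnt10 (0.843), and for Foxd1 2810433D01Rik (0.974), Kcnj12 (0.963) and Gm13814 (0.959). Between members, Foxc1 correlated with the other 5 at 0.152 to 0.503, and the other 5 with each other at 0.638 (Tcf21 and Foxc2) to 0.892 (Tcf21 and Foxd1).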

How the data were processed

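The deposited tables, 1 per experiment, hold expected counts of reads per gene and well; the authors made them with featureCounts 1.5.1, STAR 2.4.2a, cutadapt 1.11 and BWA 0.7.17-r1188 on mm10, per the submitters' processing notes, which give no roles. No molecular identifiers were counted, so intervals cover counting error only. Identifiers were matched to GENCODE M21 (45143 of 45792). Wells with 1 imaged cell, at least 500 genes and at most 30% mitochondrial counts were kept; imaging replaced a doublet caller. Clustering used 2000 variable genes, 15 components and Leiden resolution 0.8 (Scanpy 1.11.5, Python 3.11.15); a cluster was named if 25% of its wells or more showed each of at least 3 markers of a list, that list led its 50 leading genes, and 1 stood in its top 10. Counts summed per class and pool were rounded and tested with edgeR 4.0.16 in R 4.3.3 (quasi-likelihood, TMM, filterByExpr, Benjamini-Hochberg over all genes, threshold 0.05). The class comparison had the pool as a block. The diabetes comparison had the experiment as a block; titles mark the shared array, and deviations of same-experiment sums correlated at 0.030, 0.053 and 0.300 in podocyte-, mesangial- and endothelial-like wells. SE is the size of the log2 fold change divided by the root of the quasi-F statistic. Leaving out a pool keeps the pool block in the class comparison and drops the experiment block in the diabetes comparison. In the latter, the lone sum left in a group is assumed to vary like the others. Simulated counts in the class fit returned 63 of 100 4-fold and 100 of 100 16-fold changes, with 5 false calls of 12061 genes. They had the same assumed spread for every gene and no pool effect, so they are no measure of power in the real sums. There, Lmx1b at 4.56 in podocyte-like over mesangial-like wells was not called (edgeR adjusted p = 0.150). Named genes are all members, the 6 most abundant of each list, forkhead genes at 5 CPM and the 3 most alike; some items are not reported here. Alternatives were DESeq2 1.42.0, RLE scaling, no filter on low counts, no block, at most 15% mitochondrial counts, thinning, a finer Leiden resolution, clusters made with the members, and leaving out each pool. No member was among the variable genes when left in, so clusters made with the members repeat the main ones and are no separate check. The members and lists were chosen with earlier results of these data known. The mice of a pool cannot be separated, so p-values do not measure the spread between mice. They measure the spread left between sums after the block, drawn toward a spread shared over genes. In the diabetes fits, with 1 sum per pool, they rest mostly on that shared spread and little on a gene's own spread between pools.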

Additional observations from a re-analysis of the deposited data

How the results depend on the processing

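Of the 5 members called between podocyte-like and endothelial-like wells, 3 of 3 tested were called after thinning, 1 in experiment 1 alone and 2 in experiment 2 alone (both added after seeing the data), and 2 to 4 without 1 pool. Between podocyte-like and mesangial-like wells the 3 calls became 0 and 1 in experiments 1 and 2 alone and 1 to 3 without 1 pool. Between mesangial-like and endothelial-like wells the 2 calls became 1 under RLE scaling, 1 without the replicate block, 1 at Leiden resolution 1.2, 0 in either experiment alone and 1 to 1 without 1 pool; Wt1 was the call lost, with 2.57 and adjusted p = 0.167 by edgeR without the replicate block. The block also carried Wt1 in podocyte-like over mesangial-like wells (2.89, edgeR adjusted p = 0.0978 without it), and no other member call changed. The edgeR calls lost without diabetes replicate 1 were Lmx1b and Foxc1 over endothelial-like wells (0.0505 and 0.0564) and Foxc2 over mesangial-like wells (0.0587). Those lost without control replicate 1 were Lmx1b, Tcf21 and Foxc1 (0.122, 0.0778 and 0.0679) and Tcf21 and Foxc2 over mesangial-like wells (0.0615 and 0.0800); without control replicate 2, Lmx1b over endothelial-like (0.0985) and Wt1 over mesangial-like wells (0.0658). In podocyte-like wells 0 to 1 members were called between diabetes and control without 1 pool.

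DESeq2 called Lmx1b in podocyte-like over mesangial-like wells (4.31, adjusted p = 0.00546) and 1566, 1195 and 1309 genes in the class comparisons, against 537, 472 and 591 by edgeR. Signs turned for Foxc1 in podocyte-like over mesangial-like wells (-0.81 to 0.32 without 1 pool, above 0 without diabetes replicate 2 or control replicate 1, and 0.029 in experiment 1 alone), for Tcf21 (-0.50) and Foxc2 (-1.59) in mesangial-like over endothelial-like wells in experiment 1 alone, and between diabetes and control in podocyte-like wells for Foxc2 (-0.01 with no filter, -0.60 to 0.90 without 1 pool) and Lmx1b (-10.52 to 0.72 without 1 pool, the lowest set against a group at 0 and no bound), both turned without diabetes replicate 1. After thinning, 25%, 58.3%, 41.7%, 47.2% and 23.6% of podocyte-like wells showed Lmx1b, Tcf21, Foxc1, Foxc2 and Foxd1. Without thinning, 52.1% showed Foxc1 at 2 or more counts. The causes were not tested, other than that thinning lowers depth and leaving out pools or experiments lowers the number of sums.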
